A study of Mus musculus with 6 samples.

Results

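The 41 genes described here are type I interferon response genes: receptors and transcription factors of the pathway, sensors of foreign nucleic acid, and the antiviral and regulatory genes that interferon switches on. They are a list of gene names with no threshold on a value, chosen with earlier results of these data known. Of the 41, 39 have a probe set annotated to them alone, out of 19937 genes with such a probe set. Isg15 shares its probe set with another gene and Ifi44 has none here, so neither was analysed. Where a gene had several probe sets, the one with the highest mean over the 6 arrays was used.

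RNA came from mammary epithelial organoids, clumps of gland tissue freed by collagenase and hyaluronidase and grown in growth factor-reduced Matrigel. All cultures carried the ErbB3 DOX-KO genotype on the FVB strain, were set up from age-matched female mice, and were kept for 14 days. The DOX group received 5 µM doxycycline, the drug that induces the loss of Erbb3, a neuregulin-binding receptor of the EGF receptor family, and the control group received none. Each group has 3 cultures that the series calls biological replicates, with 1 one-colour Affymetrix array each, and the promoter that drives the knockout and whether cultures shared a mouse are not given in the labels. Both groups carried the inducible allele, and organoids given doxycycline without it are not analysed here, so effects of the drug and of the allele's loss cannot be told apart.

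Type I interferons are secreted proteins that bind a receptor made of Ifnar1 and Ifnar2. The receptor's kinases Jak1 and Tyk2 then activate Stat2, which joins Irf9 in a complex that binds interferon-stimulated response elements (ISRE) in promoters. Many of the induced genes, among them Irf7, Stat2, Irf9 and the RNA sensors, feed back into the pathway. Cells also keep part of this program running at a low level in the absence of infection. The response is known mainly from infected and immune cells, and epithelial cells also carry it.

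The deposited values are log2 expression readings per probe set. DOX replicate 2 stood apart. Its correlation with each other array, taken over genes, was 0.816 to 0.865, where the remaining 5 correlated at 0.963 or more. Its scale was compressed: genes in the top 10% of control readings read a median of 1.59 below control on that array. Genes in the lowest 10% read a median of 0.84 above control there. Differences are therefore given with all 6 arrays and also without DOX replicate 2. Erbb3 read 10.36, 9.31 and 9.82 in DOX replicates 1, 2 and 3, against 9.78, 9.71 and 9.69 in control replicates 1, 2 and 3, with a difference of 0.10 (SE 0.29, limma adjusted p = 0.845), or 0.37 (limma adjusted p = 0.105) without DOX replicate 2. DOX replicate 2 read below all control arrays and DOX replicates 1 and 3 above them, so the targeted gene was not lower in the DOX mean. The place of its probe set relative to the deleted part is not given, and DOX throughout means the label. Of 8 epithelial markers, Epcam, Cdh1, Krt8 and Krt18 read above the upper quartile of every array, and the luminal keratin Krt19 read 4.64 to 4.99 in DOX arrays and 4.67 to 4.92 in control arrays, below every array median. The basal markers Krt5, Krt14 and Trp63 read 4.99 to 5.57, 5.34 to 5.83 and 5.18 to 6.31 in DOX arrays, against 4.84 to 5.49, 6.50 to 6.77 and 4.88 to 5.19 in control arrays. The array medians were 5.41 to 5.86 for DOX arrays and 5.37 to 5.39 for control arrays.

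Interferon response genes were lower in the DOX arrays as a broad group, and none passed as higher. With all 6 arrays, 23 of the 39 genes passed as lower in limma at an adjusted p under 0.05 over all genes, 0 passed as higher and 16 did not pass. Over all 19937 genes, 2.26% passed as lower and 0.12% as higher. Without DOX replicate 2, 35 of the 39 passed as lower, 0 as higher and 4 did not pass, where 14.3% of all genes passed as lower and 12.3% as higher. All 23 genes of the first count were among the 35. The list was chosen with earlier results of these data known, so these counts and the medians below describe it and are no independent test.

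The median log2 difference, DOX minus control, was −1.54 over the 39 genes against 0.02 over all genes. Leaving out DOX replicate 2 gave medians of −1.52 and 0.01. In 35 of the 39 genes all 3 DOX arrays read below all 3 control arrays, and this held for 20.3% of all genes. All 23 genes that passed were at least 2-fold lower, 11 of them at least 4-fold and 3 at least 8-fold. The smallest SE among the 23 was 0.18, for Herc6, so passing in itself required a large difference. The lowest differences belonged to Irf7, Rtp4 and Lgals3bp, which lay at positions 14, 16 and 46 from the bottom among the differences of all genes. In organoid cultures, fewer cells of a type and less RNA per cell cannot be told apart.

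**Figure D1:**
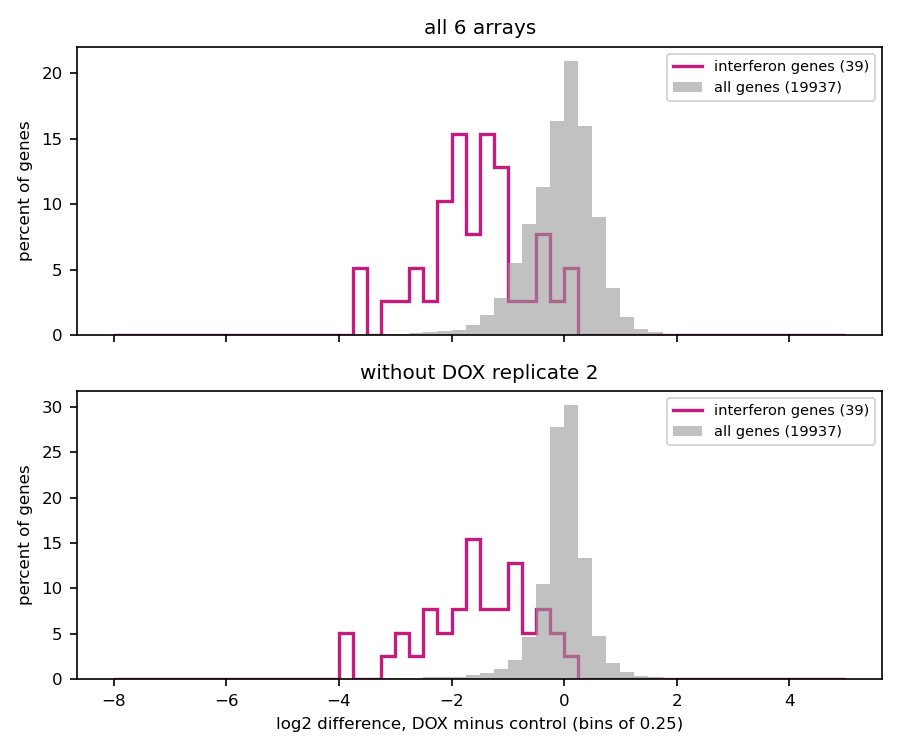
Distribution of the log2 difference, DOX minus control (x axis, bins of 0.25), as percent of genes (y axis), for the 39 interferon genes (line) and all 19937 genes (filled), with all 6 arrays (top) and without DOX replicate 2 (bottom). The interferon genes lie to the left of the bulk in both panels, with medians of −1.54 and −1.52.

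The count of calls depended on single arrays, and the sign of the median did not. Without DOX replicate 1, 2 or 3 the number of genes lower was 19, 35 and 11, and without control replicate 1, 2 or 3 it was 5, 4 and 2, always with 0 higher and with medians of −1.69 to −1.52. The count over all genes moved too, to 264, 2855 and 188 lower without DOX replicate 1, 2 or 3 and to 83, 78 and 61 without control replicate 1, 2 or 3. A quantile normalization between arrays gave 21 lower and 0 higher among the 39, with 548 lower and 314 higher over all genes, and cyclic loess gave 29 and 0, with 1099 and 628. Irf7 and Ifit3 kept their calls under all 15 alternatives, and Rtp4 and Lgals3bp under 14 of 15. The other 19 genes lost the call under 3 to 8 of them, with the highest adjusted p at 0.0680 to 0.252.

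The sequence in front of the genes was searched as a description. The genes were chosen as interferon response genes, which are induced through ISREs, so an excess of ISRE cores goes with that choice. RefSeq promoter windows, from 250 bases before to 50 bases after the transcription start (assembly GRCm38.p6), were matched by symbol to 29 of the 39 measured genes. The ISRE core was searched as GAAANNGAAA and the gamma-activated site (GAS) core, known from promoters that interferon-gamma induces, as TTCNNNGAA, each on both strands. The ISRE core was present in 11 of the 29 (37.9%), against 3.99% of 27025 genes with a promoter window. The GAS core was present in 9 of the 29 (31.0%), against 9.55% of all. In Bst2 a match of each motif overlapped.

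Windows with the ISRE core from genes that passed as lower with all 6 arrays are shown first, to set the elements beside the expression values that follow, and then windows from genes that did not pass. Sequences are written 5′ to 3′ along the gene, and capitals mark the ISRE core, which reads as its reverse complement where it lies on the opposite strand.
Ifit3 chr19:34583353-34583402, + strand: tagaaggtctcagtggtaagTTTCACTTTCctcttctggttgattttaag
Ifit3 chr19:34583387-34583436, + strand: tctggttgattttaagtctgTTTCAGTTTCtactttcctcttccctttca
Ifit1 chr19:34640765-34640814, + strand: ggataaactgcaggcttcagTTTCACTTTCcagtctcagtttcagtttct
Ifit1 chr19:34640784-34640833, + strand: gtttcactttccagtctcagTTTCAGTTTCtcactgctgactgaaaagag
Rsad2 chr12:26456543-26456592, - strand: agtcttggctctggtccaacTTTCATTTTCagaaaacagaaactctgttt
Ddx60 chr8:61928014-61928063, + strand: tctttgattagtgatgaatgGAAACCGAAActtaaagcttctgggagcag
Bst2 chr8:71537567-71537616, - strand: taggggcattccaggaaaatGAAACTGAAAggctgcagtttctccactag
Oas3 chr5:120777705-120777754, - strand: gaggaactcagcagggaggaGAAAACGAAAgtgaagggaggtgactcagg
Stat2 chr10:128270256-128270305, + strand: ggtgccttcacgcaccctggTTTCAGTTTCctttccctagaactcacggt

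In Ifit1, Ifit3 and Ddx60 the core occurred at 2 separate places ahead of the start, at −104 to −95 and −85 to −76 in Ifit1 and at −156 to −147 and −122 to −113 in Ifit3, where −1 is the last base before the start. Rsad2 had 1 match at −120 to −111. In Ifih1, Ddx58 and Eif2ak2 the match lay within the 50 bases after the start.

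Genes with and without a match had overlapping expression differences. Of the 11 genes with an ISRE core 4 passed as lower with all 6 arrays, with a median difference of −1.38 and a range of −2.92 to −0.21. Of the 18 genes without one 11 passed, with a median of −1.49 and a range of −3.74 to 0.20. When DOX replicate 2 was left out the medians were −1.09 and −1.41. Irf7 and Lgals3bp, both among the lowest, had no match of either motif in their windows, which says only that these letters are not there.

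**Figure D2:**
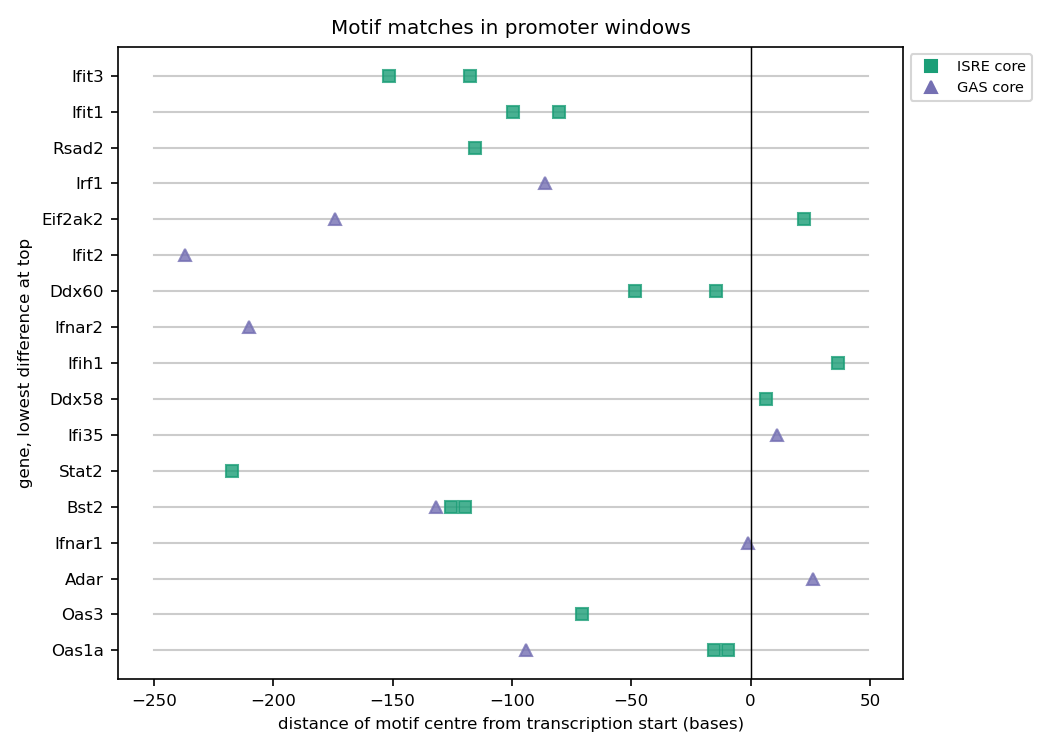
Positions of ISRE core (squares) and GAS core (triangles) matches in the promoter windows of the 17 measured interferon genes with a match, in bases from the transcription start (x axis), with the gene of the lowest DOX minus control difference at the top. Genes with an ISRE core occur from Ifit3 at −2.92 to Oas1a at −0.21.

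Among the receptor chains and transcription factors, 3 transcription factors fell with all 6 arrays, and neither receptor chain passed. In that fit 2.26% of all genes passed as lower. Irf7, the factor that amplifies interferon-alpha transcription, read 5.85, 5.49 and 4.95 in DOX replicates 1, 2 and 3, against 8.80, 9.63 and 9.07 in control replicates 1, 2 and 3. Every DOX array lay far below every control array, and the difference of −3.74 (SE 0.32, limma adjusted p = 0.00361) corresponds to a 13.3-fold lower reading, with a 95% confidence interval −4.50 to −2.97 for the log2 difference. It was −3.77 (limma adjusted p = 2.17e-06) without DOX replicate 2.

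Irf1, which drives interferon targets and is itself induced by interferon-gamma, read 5.84, 5.61 and 5.54 in the DOX arrays against 7.45, 7.79 and 7.70 in the control arrays, a difference of −1.98 (SE 0.19, limma adjusted p = 0.00526), or −1.96 (limma adjusted p = 2.54e-06) without DOX replicate 2. A second Irf1 probe set read 5.13 to 5.56 in DOX arrays and 5.04 to 5.22 in control arrays, a difference of 0.20, so the probe sets disagreed, and with their mean the difference was −0.89 and Irf1 no longer passed (limma adjusted p = 0.0545). Irf9, the DNA-binding part of the complex it forms with Stat2, read 7.03, 6.33 and 6.59 in the DOX arrays against 8.14, 8.23 and 8.22 in the control arrays. It was lower in every DOX array than in any control array, with a difference of −1.54 (SE 0.23, limma adjusted p = 0.0217), or −1.39 (limma adjusted p = 3.51e-05) without DOX replicate 2.

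Stat2, the partner of Irf9, read 7.07, 6.40 and 6.70 in the DOX arrays against 7.64, 7.95 and 7.78 in the control arrays. These groups did not overlap, and the difference was −1.07 (SE 0.23, limma adjusted p = 0.0826) with all 6 arrays and −0.91 (limma adjusted p = 0.000819) without DOX replicate 2. For the receptor chain Ifnar1 the readings were 8.67, 7.03 and 8.60 in the DOX arrays against 8.60, 8.63 and 8.68 in the control arrays. On DOX replicates 1 and 3 it stood at the control level, and DOX replicate 2 alone was low: the difference was −0.54 (SE 0.45, limma adjusted p = 0.538) with all arrays and −0.004 (limma adjusted p = 0.983) without that array. Ifnar2, the other chain, gave 8.12, 4.95 and 8.26 in the DOX arrays against 8.53, 8.55 and 8.56 in the control arrays. Here too most of the difference of −1.44 (SE 0.86, limma adjusted p = 0.459) came with DOX replicate 2, and without it Ifnar2 fell, with a difference of −0.36 (limma adjusted p = 0.0344).

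All 5 nucleic acid sensors read lower in each DOX array than in any control array, and 3 of them passed with all 6 arrays. Over all genes, 20.3% read below in that way and 2.26% passed as lower with all 6 arrays. Dhx58 (LGP2), a regulator of the RNA helicase sensors, read 4.96, 5.04 and 4.52 in DOX replicates 1, 2 and 3, against 6.81, 7.13 and 6.61 in control replicates 1, 2 and 3, a difference of −2.01 (SE 0.23, limma adjusted p = 0.00989), or −2.11 (limma adjusted p = 7.04e-06) without DOX replicate 2. Zbp1, which senses nucleic acid in the Z form, read 5.09, 6.16 and 5.44 in the DOX arrays against 7.19, 7.50 and 7.36 in the control arrays and fell, with a difference of −1.79 (SE 0.30, limma adjusted p = 0.0366), or −2.09 (limma adjusted p = 1.63e-06) without DOX replicate 2. Ddx60, a helicase that assists RNA sensing and whose 2 upstream ISRE cores are described above, read 4.91, 5.45 and 5.10 in the DOX arrays against 6.47, 6.72 and 6.66 in the control arrays and fell, with a difference of −1.46 (SE 0.21, limma adjusted p = 0.0200), or −1.61 (limma adjusted p = 4.71e-06) without DOX replicate 2. For all 3 of these genes DOX replicate 2 was the highest of the DOX arrays.

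The 2 main sensors of viral RNA were lowest on DOX replicate 2. Ifih1 (MDA5) read 6.90, 5.78 and 6.36 in the DOX arrays against 7.72, 7.70 and 7.76 in the control arrays, and Ddx58 (RIG-I) read 8.15, 6.30 and 7.80 in the DOX arrays against 8.69, 8.91 and 8.64 in the control arrays. Neither passed with all 6 arrays, with differences of −1.38 (SE 0.30, limma adjusted p = 0.0856) for Ifih1 and −1.33 (SE 0.47, limma adjusted p = 0.284) for Ddx58. Both fell without DOX replicate 2, with differences of −1.09 (limma adjusted p = 0.000352) for Ifih1 and −0.77 (limma adjusted p = 0.00185) for Ddx58.

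**Figure D3:**
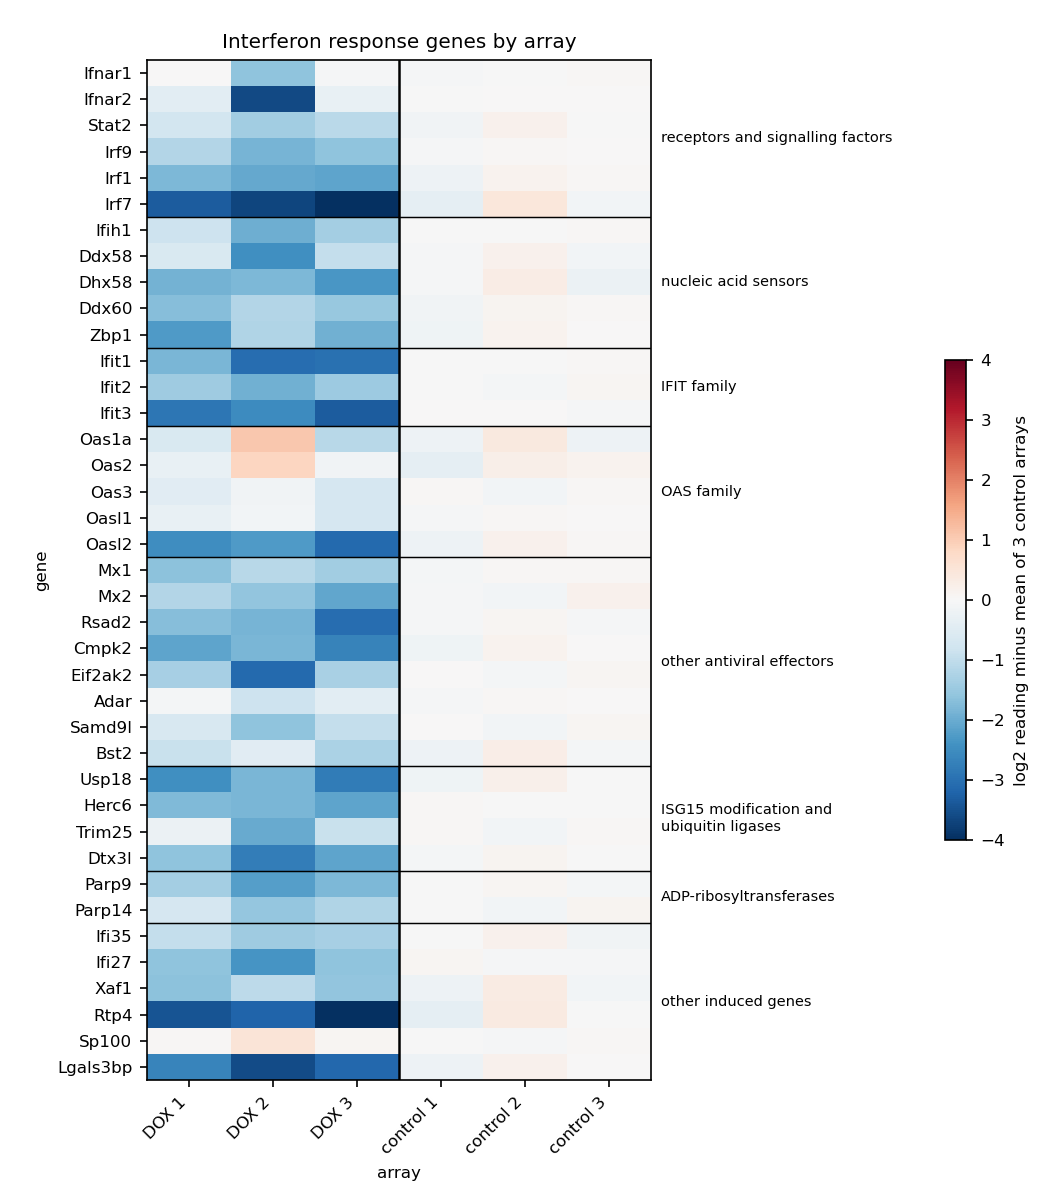
Log2 reading of each measured interferon gene (rows, grouped by role) on each array (columns, DOX arrays left) minus the mean of the 3 control arrays of that gene, as colour from −4 (blue) to 4 (red). Most rows are blue on all 3 DOX arrays, while Ifnar1 and Ifnar2 are mainly low on DOX replicate 2 and Oas1a, Oas2 and Sp100 are high there.

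The 3 IFIT genes, whose products bind foreign RNA, all fell with either set of arrays. Ifit3 read 4.85, 5.22 and 4.40 in DOX replicates 1, 2 and 3, against 7.75, 7.76 and 7.71 in control replicates 1, 2 and 3, with nearly equal control arrays. Its difference was −2.92 (SE 0.24, limma adjusted p = 0.00346), a 7.55-fold lower reading, and −3.11 (limma adjusted p = 8.84e-08) without DOX replicate 2. Ifit1 read 6.34, 5.12 and 5.18 in the DOX arrays against 8.15, 8.13 and 8.20 in the control arrays, a difference of −2.61 (SE 0.35, limma adjusted p = 0.0161), or −2.40 (limma adjusted p = 4.72e-05) without DOX replicate 2, with DOX replicate 1 the highest of the DOX arrays and still below all control arrays. Ifit2 read 7.47, 6.97 and 7.43 in the DOX arrays against 8.87, 8.82 and 8.96 in the control arrays and fell, with a difference of −1.60 (SE 0.20, limma adjusted p = 0.0141), or −1.43 (limma adjusted p = 4.67e-06) without DOX replicate 2. Ifit3 has a near-identical copy, Ifit3b, whose probe set also read lower, with a difference of −2.29 (SE 0.28, limma adjusted p = 0.0120), or −2.57 (limma adjusted p = 3.48e-07) without DOX replicate 2, and hybridisation across the copies was not tested.

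The OAS family was uneven. These enzymes make oligoadenylates that activate the RNA-degrading enzyme RNase L, and the OAS-like members carry ubiquitin-like domains. Oasl2 read 6.17, 6.38 and 5.53 in DOX replicates 1, 2 and 3, against 8.44, 8.81 and 8.71 in control replicates 1, 2 and 3, without overlap, and fell, with a difference of −2.63 (SE 0.27, limma adjusted p = 0.00643), or −2.81 (limma adjusted p = 1.10e-06) without DOX replicate 2, and with all arrays the reading was 6.19-fold lower. The other 4 members did not pass with all 6 arrays, with differences of −0.21 for Oas1a, 0.13 for Oas2, −0.42 for Oas3 and −0.35 for Oasl1 (limma adjusted p = 0.843, 0.842, 0.414 and 0.454).

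For Oas1a and Oas2 DOX replicate 2 was the highest array of all 6. Oas1a read 5.58, 7.27 and 5.07 in the DOX arrays against 5.98, 6.57 and 5.99 in the control arrays, and Oas2 read 5.20, 6.36 and 5.36 in the DOX arrays against 5.14, 5.75 and 5.64 in the control arrays. Without that array Oas1a, Oas3 and Oasl1, the last known in mice to restrain Irf7 translation, fell, with differences of −0.85 (limma adjusted p = 0.00821) for Oas1a, −0.57 (limma adjusted p = 0.00525) for Oas3 and −0.48 (limma adjusted p = 0.0196) for Oasl1. Oas2 did not pass then either, at −0.23 (limma adjusted p = 0.372). The sign of both turned on single arrays, with 0.24 for Oas1a without DOX replicate 3 and −0.05 for Oas2 without control replicate 1, and quantile normalization gave 0.22 for Oas1a and 0.05 for Oasl1. A further probe set that Oas1a shares with its close copy Oas1g was not used, and readings of such copies are uncertain.

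All 8 other antiviral effectors read below the control arrays in every DOX array, and 4 of them passed with all 6 arrays. The shares over all genes were 20.3% for reading below in that way and 2.26% for passing as lower. Rsad2 (viperin), which makes a chain-terminating nucleotide, read 6.33, 6.16 and 4.97 in DOX replicates 1, 2 and 3, against 7.99, 8.11 and 7.99 in control replicates 1, 2 and 3. DOX replicate 3 was clearly below the other DOX arrays, all were below the control arrays, and the difference was −2.21 (SE 0.37, limma adjusted p = 0.0368), or −2.38 (limma adjusted p = 0.000143) without DOX replicate 2. Cmpk2, a mitochondrial nucleotide kinase whose gene lies next to Rsad2, read 5.45, 5.76 and 4.88 in the DOX arrays against 7.41, 7.70 and 7.60 in the control arrays and fell, with a difference of −2.21 (SE 0.26, limma adjusted p = 0.0104), or −2.40 (limma adjusted p = 1.80e-06) without DOX replicate 2. These neighbours thus had nearly equal differences, and both were lowest on DOX replicate 3.

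The dynamin-like GTPases Mx1 and Mx2, which block virus replication and of which Mx1 is defective in many laboratory strains, fell, with differences of −1.38 (SE 0.20, limma adjusted p = 0.0210) for Mx1 and −1.62 (SE 0.27, limma adjusted p = 0.0360) for Mx2. Without DOX replicate 2 the differences were −1.52 for Mx1 and −1.63 for Mx2. Their DOX readings were 4.45 to 4.98 for Mx1 and 4.22 to 5.13 for Mx2, against 6.01 to 6.14 and 6.18 to 6.49 in control arrays. Eif2ak2 (PKR), a kinase that halts translation on sensing double-stranded RNA, read 6.90, 5.12 and 6.94 in the DOX arrays against 8.25, 8.15 and 8.31 in the control arrays. DOX replicates 1 and 3 were nearly equal and DOX replicate 2 lay below them, all below the control arrays. Eif2ak2 differed by −1.91 (SE 0.49, limma adjusted p = 0.143) with all arrays and fell, with a difference of −1.31 (limma adjusted p = 9.93e-06) without DOX replicate 2.

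Samd9l, an antiviral restriction factor, and Bst2 (tetherin), which holds budding virus at the cell surface, did not pass with all 6 arrays, with differences of −1.07 (SE 0.27, limma adjusted p = 0.137) for Samd9l and −0.87 (SE 0.26, limma adjusted p = 0.210) for Bst2. Both fell without DOX replicate 2, with differences of −0.80 (limma adjusted p = 0.000871) for Samd9l and −1.07 (limma adjusted p = 0.000642) for Bst2. Adar, which edits double-stranded RNA and has a constitutive as well as an interferon-driven promoter, read 8.11, 7.37 and 7.77 in the DOX arrays against 8.15, 8.22 and 8.19 in the control arrays. Its difference was −0.44 (SE 0.23, limma adjusted p = 0.433), and −0.25 (limma adjusted p = 0.176) without DOX replicate 2, so it passed in neither fit.

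**Figure D4:**
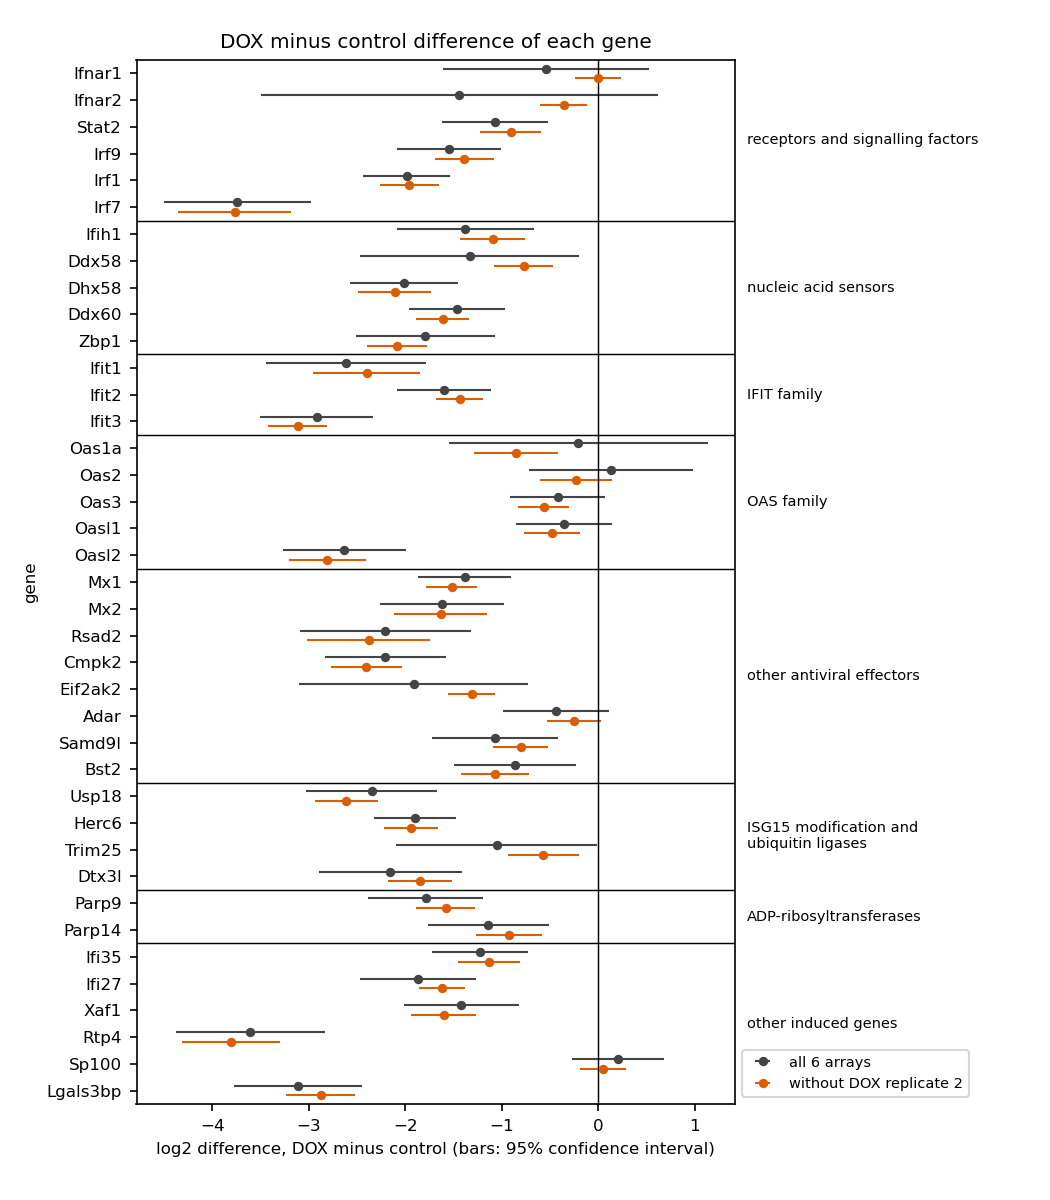
Log2 difference, DOX minus control (x axis), of each measured interferon gene (rows, grouped by role) with its 95% confidence interval from limma, with all 6 arrays (dark) and without DOX replicate 2 (orange). Irf7, Rtp4, Lgals3bp and Ifit3 lie lowest, and the intervals of Ifnar1, Oas2, Adar and Sp100 include 0 in both fits.

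Of 4 measured genes for ISG15 modification and ubiquitin ligases, 3 passed as lower with all 6 arrays and 4 without DOX replicate 2. Over all genes, 2.26% passed as lower with all 6 arrays and 14.3% did without DOX replicate 2. Usp18, which removes the ubiquitin-like protein ISG15 from its targets and dampens receptor signalling, read 5.64, 6.26 and 5.30 in DOX replicates 1, 2 and 3, against 7.91, 8.28 and 8.06 in control replicates 1, 2 and 3, a difference of −2.35 (SE 0.28, limma adjusted p = 0.0107), or −2.61 (limma adjusted p = 4.14e-07) without DOX replicate 2. Herc6, the ligase that attaches ISG15 in mice, read 5.44, 5.39 and 5.11 in the DOX arrays against 7.25, 7.19 and 7.19 in the control arrays and fell, with a difference of −1.90 (SE 0.18, limma adjusted p = 0.00488), or −1.94 (limma adjusted p = 1.22e-06) without DOX replicate 2. Trim25, a ubiquitin ligase that activates RIG-I, read 7.81, 6.04 and 7.18 in the DOX arrays against 8.11, 7.96 and 8.11 in the control arrays. Its difference was −1.05 (SE 0.43, limma adjusted p = 0.352) with all arrays and −0.57 (limma adjusted p = 0.0282) without DOX replicate 2.

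Dtx3l, a ubiquitin ligase, and Parp9, an ADP-ribosyltransferase family member, form a complex, and their genes lie side by side with Parp14 on chromosome 16. Dtx3l read 6.62, 5.45 and 6.11 in the DOX arrays against 8.13, 8.31 and 8.20 in the control arrays, and Parp9 read 7.18, 6.34 and 6.76 in the DOX arrays against 8.54, 8.62 and 8.48 in the control arrays. Both were in the same order on the DOX arrays, highest on replicate 1 and lowest on replicate 2, and both fell, with differences of −2.15 (SE 0.31, limma adjusted p = 0.0208), or −1.85 (limma adjusted p = 6.85e-06) without DOX replicate 2 for Dtx3l and −1.79 (SE 0.25, limma adjusted p = 0.0188), or −1.58 (limma adjusted p = 1.27e-05) without DOX replicate 2 for Parp9. Parp14 read 7.10, 6.20 and 6.57 in the DOX arrays against 7.74, 7.66 and 7.88 in the control arrays, in that same order, and differed by −1.14 (SE 0.26, limma adjusted p = 0.102) with all arrays and −0.93 (limma adjusted p = 0.00129) without DOX replicate 2.

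The other 6 measured genes held 2 of the 3 that were at least 8-fold lower. Rtp4, a receptor-transporting protein with antiviral activity, read 5.24, 5.49 and 4.51 in DOX replicates 1, 2 and 3, against 8.32, 9.05 and 8.68 in control replicates 1, 2 and 3. Every DOX array lay far below every control array, and the difference of −3.60 (SE 0.32, limma adjusted p = 0.00409) is a 12.2-fold lower reading. Lgals3bp, a secreted glycoprotein that binds galectins, read 6.65, 5.71 and 6.15 in DOX replicates 1, 2 and 3, against 9.08, 9.45 and 9.31 in control replicates 1, 2 and 3 and fell, with a difference of −3.11 (SE 0.28, limma adjusted p = 0.00409). The differences without DOX replicate 2 were −3.81 for Rtp4 and −2.88 for Lgals3bp.

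Ifi27, a small interferon-induced membrane protein gene, read 7.88, 7.13 and 7.88 in the DOX arrays against 9.57, 9.46 and 9.46 in the control arrays and fell, with a difference of −1.87 (SE 0.25, limma adjusted p = 0.0169), or −1.62 (limma adjusted p = 1.63e-06) without DOX replicate 2. Xaf1, a partner of the apoptosis inhibitor XIAP, and Ifi35 fell, with differences of −1.42 (SE 0.25, limma adjusted p = 0.0430) for Xaf1 and −1.23 (SE 0.21, limma adjusted p = 0.0374) for Ifi35, and of −1.60 and −1.13 without DOX replicate 2. Sp100, a protein of PML nuclear bodies, read 4.35, 4.83 and 4.38 in the DOX arrays against 4.31, 4.28 and 4.36 in the control arrays. It was not lower on any DOX array than on all control arrays, and its difference was 0.20 (SE 0.20, limma adjusted p = 0.591), or 0.05 (limma adjusted p = 0.787) without DOX replicate 2. Quantile normalization gave −0.08 and cyclic loess −0.09 for Sp100. A further probe set that Sp100 shares with other genes was not used.

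The DOX arrays differed among themselves more than the control arrays did. The median SD of the 39 genes was 0.44 over the 3 DOX arrays and 0.10 over the 3 control arrays, and 0.26 over DOX replicates 1 and 3. Between DOX replicates 3 and 1, 31 of the 39 genes read lower on replicate 3, and the median deviation from the control mean was −1.36, −1.82 and −1.52 on DOX replicates 1, 2 and 3, where it was −0.02, −0.01 and 0.03 over all genes. DOX replicate 2 was the lowest DOX array for 18 genes and the highest for 16. Set beside genes of the same 10% step of control reading, 37, 34 and 38 of the 39 genes lay below the step's median on DOX replicates 1, 2 and 3, by a median of −1.38, −0.85 and −1.43. On DOX replicate 2, the median over all genes in the upper 3 steps was −1.06, −1.36 and −1.59, so part of the −1.82 there is shared with other genes of that level.

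Genes around the program were compared from lists chosen by role. Of 13 measured type I interferon ligand genes, 0 passed in either direction with all 6 arrays, and the median difference was 0.09. Ifnb1, the gene of interferon-beta, read 3.85, 4.46 and 4.12 in the DOX arrays against 4.15, 4.43 and 4.11 in the control arrays, with overlap. Its difference was −0.08 (SE 0.22, limma adjusted p = 0.842), or −0.24 (limma adjusted p = 0.230) without DOX replicate 2, and the 95% confidence interval −0.62 to 0.45 is that of all arrays. Of the 13, only Ifnab, named after its value was seen, passed without DOX replicate 2, as higher, at 0.41 (limma adjusted p = 0.0388). In that fit 12.3% of all genes passed as higher, so 1 of 13 is not above the background. Interferon-alpha probe sets can share sequence among copies, and readings this low have no detection call. Genes at the low end of control readings rose in general on DOX replicate 2, as described above.

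No gene passed with all 6 arrays among 7 kinase and other interferon receptor genes (median −0.41), 13 adaptors, kinases and IRFs upstream of interferon (median −0.27) or 8 negative regulators (median −0.52). Leaving out DOX replicate 2 these medians were 0.11, −0.15 and −0.19. Jak1 and Tyk2, the receptor kinases, differed by −0.38 and −0.17 with all arrays and by 0.06 and −0.11 without DOX replicate 2 (limma adjusted p = 0.595 and 0.709 with all arrays). Irf3, the factor activated ahead of interferon production, differed by −0.68 (SE 0.43, limma adjusted p = 0.473), and −0.17 (limma adjusted p = 0.345) without DOX replicate 2.

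Without DOX replicate 2, 2 of the 13 adaptors, kinases and IRFs passed as lower and 1 as higher, and 3 of the 8 negative regulators passed as lower and 0 as higher, where 14.3% of all genes passed as lower and 12.3% as higher. The count for adaptors, kinases and IRFs is near that background. Apart from Socs1, which was to be named whatever its value, the genes that passed here are named after their values were seen. The adaptors Sting1 and Myd88 fell, with differences of −1.25 (limma adjusted p = 1.31e-05) for Sting1 and −0.69 (limma adjusted p = 0.00259) for Myd88. The kinase Tbk1 rose by 0.37 (limma adjusted p = 0.0387), while its difference with all arrays was −0.37. Sting1, the adaptor of cytosolic DNA sensing, read 8.83, 7.51 and 8.79 in the DOX arrays against 10.03, 10.13 and 10.01 in the control arrays. Among negative regulators Nlrx1, Ptpn6 and Socs1 fell, with differences of −0.98 (limma adjusted p = 7.15e-05), −0.57 (limma adjusted p = 0.00291) and −0.40 (limma adjusted p = 0.0319) in that order. Socs3 differed by −0.27 (limma adjusted p = 0.102), and with all 6 arrays Socs1 and Socs3 differed by −0.29 and −0.19 (limma adjusted p = 0.475 and 0.564).

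A further 31 measured interferon-induced genes outside the 41 moved the same way in part. Of these 7 passed as lower and 0 as higher with all 6 arrays (median −0.80), and 19 and 0 without DOX replicate 2 (median −0.75). Over all genes 2.26% passed as lower with all 6 arrays and 14.3% without DOX replicate 2. Trim30a, a TRIM family ligase of mice, read 4.97, 5.49 and 5.03 in the DOX arrays against 7.92, 8.24 and 7.84 in the control arrays and fell, with a difference of −2.84 (SE 0.22, limma adjusted p = 0.00285), or −2.999 without DOX replicate 2. Lgals9, which encodes galectin-9, fell, with a difference of −2.53 (SE 0.20, limma adjusted p = 0.00300), or −2.60 (limma adjusted p = 4.41e-07) without DOX replicate 2. The Schlafen genes Slfn8 and Slfn2 and the ADP-ribosyltransferase Parp12 fell, with differences of −2.08, −1.34 and −1.85 in that order (limma adjusted p = 0.00278, 0.0210 and 0.0481), and of −2.07, −1.22 and −1.62 without DOX replicate 2. Ube2l6, the carrier enzyme for ISG15, fell, with a difference of −2.25 (SE 0.27, limma adjusted p = 0.0101), or −2.33 (limma adjusted p = 1.47e-05) without DOX replicate 2, and Ifit3b, given above, completes the 7. Uba7, the ISG15-activating enzyme, named after its value was seen, did not pass with all 6 arrays, at −1.17 (SE 0.25, limma adjusted p = 0.0858), or −1.39 (limma adjusted p = 3.59e-05) without DOX replicate 2.

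**Figure D5:**
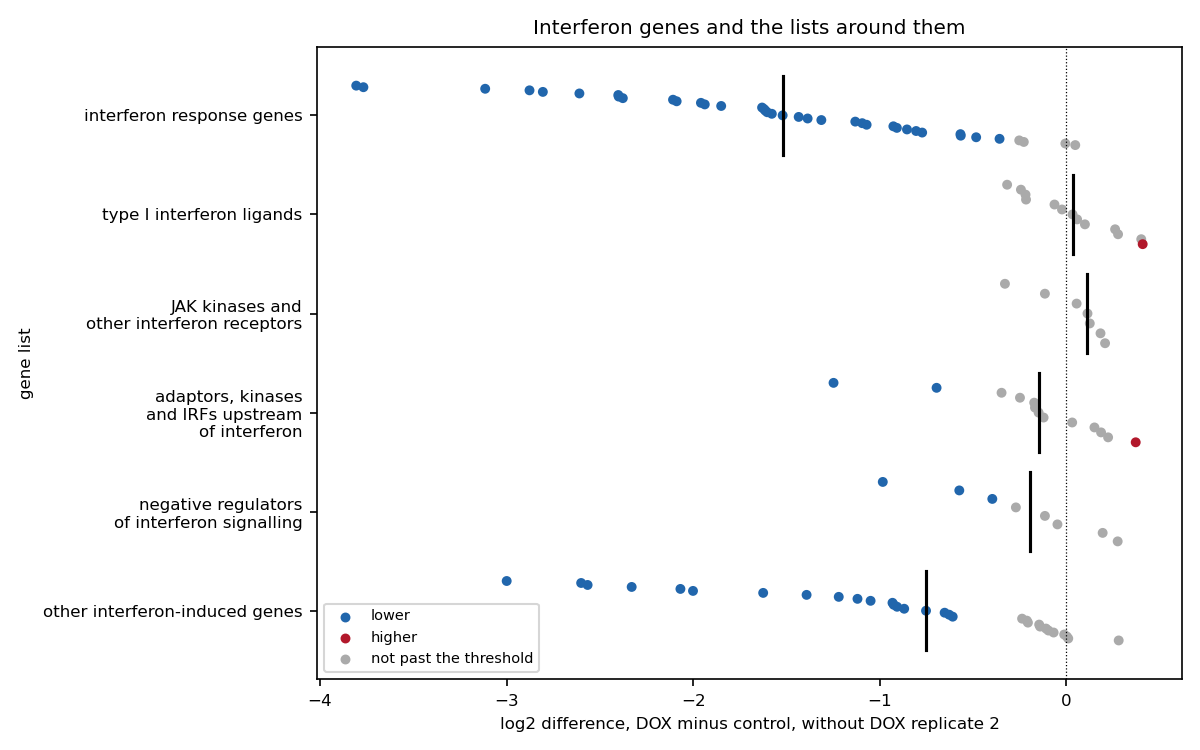
Log2 difference, DOX minus control, without DOX replicate 2 (x axis), of every measured gene in 6 lists (rows), with the list median as a black bar and colour for genes that passed as lower (blue) or higher (red) in limma at an adjusted p under 0.05. The 39 interferon response genes have a median of −1.52, and the medians of ligands and of kinases and other receptors lie at 0.03 and 0.11.

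No marker of leukocytes, the cells best known for this response, passed as lower. Of 12 measured markers 0 passed in either direction with all 6 arrays (median difference 0.51, or 0.20 without DOX replicate 2). Without DOX replicate 2 Ptprc, Cd68 and Nkg7 were higher, with differences of 0.38, 1.01 and 0.41, and 0 were lower. Over all genes 14.3% passed as lower and 12.3% as higher in that fit. Cd68 read 6.72 on DOX replicate 2, below the control arrays at 7.19 to 7.43. The mean reading of the list was 4.93 to 5.73 over the DOX arrays and 4.78 to 4.87 over the control arrays. Apart from Cd3e and Cd68, the markers had control means below the control array medians of 5.37 to 5.39. A fall from readings this low can be understated, and how large a fall could be seen was not tested. The absence of lower calls therefore does not show whether leukocytes were fewer. Ptprc, the pan-leukocyte gene for CD45, read 4.77, 5.28 and 4.96 in the DOX arrays against 4.60, 4.41 and 4.43 in the control arrays, and Siglech, of plasmacytoid dendritic cells, read 4.80, 6.55 and 4.96 in the DOX arrays against 4.68, 4.90 and 4.27 in the control arrays. Of 9 fibroblast, endothelial and adipocyte markers 0 passed in either fit (median difference 0.29, or 0.03 without DOX replicate 2). The mean reading of that list was 4.86 to 4.97 over the control arrays, also below the array medians, so the same limit holds for most of it. Of 8 epithelial markers 0 passed with all 6 arrays (median −0.47, or −0.19 without DOX replicate 2). Without DOX replicate 2 the luminal keratins Krt8 and Krt18 and the basal keratin Krt14 were lower, with differences of −0.74, −0.64 and −1.06 in that order, and 0 were higher. That is 3 of the 8 markers, where 14.3% of all genes passed as lower in that fit. The part of these shifts in the interferon result was not tested.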

How the data were processed

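Log2 expression values per probe set were used as the authors deposited them. Per the submitters' processing notes they were made with RMA and the affy package, whose versions, genome build and annotation are not given in the sources used here. The quartiles of the columns differ between arrays. Of 34760 probe sets 21640 carry 1 gene symbol in the platform annotation, 1321 carry several and 11799 none here, and only the first kind was used, with the probe set of the highest mean per gene. Symbols were checked by gene identifier against RefSeq and 0 changed.

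DOX and control arrays, grouped by sample title, entered a moderated linear model without covariates (limma 3.58.1 under R 4.3.3, functions lmFit and eBayes, two-sided). Benjamini-Hochberg adjustment covered the 19937 genes, and calls were made under 0.05. P values set each difference against the spread between these cultures, moderated over all genes, and that spread may in part be technical. Whether cultures shared a mouse is not given, so the spread between animals may not be represented. The number of arrays limits the precision. RMA gives no detection calls, so differences of genes near the low end of the scale can be understated.

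All 41 genes are accounted for. Of the lists around them, the genes to name were those that passed with all 6 arrays and Jak1, Tyk2, Ifnb1, Irf3, Socs1 and Socs3, with a further gene not reported here. The genes and lists were chosen with earlier results of these data known, and lists are described by counts and medians without a test of their own. Promoter windows are from RefSeq (GRCm38.p6). A motif match is a description. Alternatives were a block for the replicate number, omission of single arrays, filters on low means, other normalizations, other probe set and variance settings, array weights and a threshold of 0.1.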

Additional observations from a re-analysis of the deposited data

How the results depend on the processing

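The median difference of the 39 genes stayed between −1.69 and −1.41 under every alternative, and leaving out single arrays gave −1.69 to −1.52. No alternative called any of the 39 higher. The number lower was 11 with the replicate block and 35 with array weights, in which DOX replicate 2 had the lowest weight, 0.033, and leaving out single arrays gave 2 to 35 (61 to 2855 over all genes). For the 72 genes of the surrounding lists, 7 lower and 0 higher with all arrays, cyclic loess gave 15 lower, array weights 28 lower and 3 higher, the threshold of 0.1 gave 13 lower, and leaving out single arrays gave 3 to 24 lower and 0 to 2 higher. Tbk1 changed sign, with −0.77 to 0.37 as single arrays were left out and 0.37 without DOX replicate 2. The cause of these changes was not tested. Same-numbered arrays correlated at 0.12, 0.19 and 0.09 in their deviations from the group means. With control replicates 1, 2 and 3, DOX replicate 1 gave 0.117, −0.185 and 0.088, and DOX replicate 3 gave 0.116, −0.182 and 0.085. Both mirror DOX replicate 2, which stands apart, so these values cannot tell whether the numbers are pairs. Filters on low means kept 38 and 32 of the 39 genes, of which 23 and 19 were lower, with 517 of 14953 and 426 of 9969 genes lower in all. They moved the median of all genes to −0.12 and −0.33, with −1.57 and −1.69 for these genes. Over all genes the block gave 159 lower and 3 higher, and array weights 3752 and 3643, against 450 and 24.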
